A study of Mus musculus with 13 samples.

Results

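The amino acid transporters described here are 10 solute carrier (SLC) genes of the cell surface, namely Slc1a3, Slc1a4, Slc1a5, Slc3a2, Slc7a1, Slc7a5, Slc7a6, Slc7a11, Slc38a1 and Slc38a2. They were taken as the rows of the count table whose Ensembl identifiers carry these symbols, which gave 10 of the 55642 genes in the table, and all 10 passed the filter on low counts that left 16848 genes to test. The study asked how transcript levels respond to loss of YBX3, a cold shock domain protein that binds RNA, in C2C12 cells, an established mouse myoblast line. Poly(A) RNA was sequenced from 13 libraries, and the replicates of each group, which the labels call biological, carry the letters A to D. The titles carry a replicate number as well, which does not match the letters at 1 day, and the letters are used here. Control KD cells received nontargeting siRNAs and YBX3 KD cells received a pool of 4 siRNAs against the transcript. Libraries named 0 day came from proliferating myoblasts kept in medium with fetal bovine serum, and libraries named 1 day came from myoblasts given horse serum medium for 24 h to start differentiation. All cells were harvested 48 h after transfection. There were 4 control KD libraries at 0 day (A to D), 2 at 1 day (C and D), 4 YBX3 KD libraries at 0 day (A to D) and 3 at 1 day (B to D). No animal was used, every library comes from the same cell line, and the labels and the methods give different amounts of glutamine in the medium.

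Many amino acids cannot be made by cells in the amounts they need and enter through transporters with overlapping substrates. Slc1a5 (ASCT2) and Slc1a4 (ASCT1) exchange small neutral amino acids across the plasma membrane, Slc1a5 being a main route for glutamine, while their relative Slc1a3 carries glutamate and aspartate. Slc3a2 is a heavy chain that brings light chains of the SLC7 family to the membrane, where the pair exchanges amino acids, and Slc38a1 and Slc38a2 bring in neutral amino acids together with sodium. In muscle, leucine taken up in exchange for glutamine is a known activator of the growth kinase complex mTORC1.

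The libraries held between 33451547 and 71811371 counts, and each value is a CPM, the count of a gene per library total after scaling by trimmed mean of M values (TMM). Of 12 myoblast markers, 7 lay above 1 CPM in every library (Myf5, Des, Cdh15, Chrna1, Itga7, Ncam1 and Vcam1), and the marker list summed to 1064 to 1214 CPM in control KD at 0 day, 998 to 1014 at 1 day, 1165 to 1296 in YBX3 KD at 0 day and 995 to 1381 at 1 day. The 2 control KD libraries at 1 day lay below every library at 0 day, and the part of this in the comparisons between days was not tested. Among defining myogenic factors, Myod1 was low at 0.601 to 3.32 CPM, Pax7 held 0 to 9 counts and the differentiation gene Myog 2 to 129 counts. Of 6 fibroblast or mesenchymal markers, 4 lay above 1 CPM everywhere, with Pdgfrb at 248 to 494 CPM, whereas Lum and Thy1 held at most 2 counts. That list summed to 377 to 581 CPM in control KD at 0 day, 355 to 516 at 1 day, 351 to 562 in YBX3 KD at 0 day and 302 to 583 at 1 day, ranges that overlapped between the groups. Of 4 epithelial markers 1 lay above 1 CPM everywhere (Krt8, 1.23 to 6.92 CPM) and Epcam was at 0 in all 13 libraries. Of 3 neural markers 1 did (Map2, 27.5 to 58.7 CPM) and Sox10 was at 0 in all 13. In bulk RNA, fewer cells of a type and less RNA per cell cannot be told apart.

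The 4 libraries of replicate D stood apart from the other letters. Across genes, the deviations of same-letter libraries from their group means correlated at 0.508 to 0.843 among pairs of D libraries and at 0.207 to 0.488 among pairs with the letters A to C. Control KD at 1 day has only C and D, whose deviations mirror each other, so these ranges are not independent. Because replicate D stood apart, values without it, or without 1 of its libraries, are given for some of the transporters. Leaving out all of replicate D keeps 1 control KD library at 1 day, which is then assumed to vary like the other libraries.

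Ybx3 itself (ENSMUSG00000030189, GRCm39 chr6:131341810-131365448, minus strand) checks the labels. Its transcript stood at 264 to 346 CPM in the 6 control KD libraries and at 28.7 to 71.5 CPM in the 7 YBX3 KD libraries. The groups did not overlap, and the YBX3 KD mean was 14.5% of the control KD mean (log2 fold change -2.81, SE 0.17; quasi-likelihood test in edgeR, Benjamini-Hochberg adjusted p = 4.31e-06). The antisense strands of the 4 siRNAs are shown because a short stretch at their start, bases 2 to 8, can also pair with other transcripts. They are written 5′ to 3′ with that seed in capitals, as the study lists them. The sense strand listed for siRNA 07 does not pair with its listed antisense strand and was not found in Ybx3, so the identity of that siRNA and its seed is less sure.
siRNA 05: uAUAGUUGuagggacgucg
siRNA 06: aUAGUAGCcgcgucuguac
siRNA 07: uCCAUAUCcauuucugacg
siRNA 08: aUACUUGCguggguuguuu

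Each antisense strand matched the canonical Ybx3 transcript over its full 19 bases, starting at transcript bases 978, 734, 503 and 581 for siRNA 05, 06, 07 and 08. A site complementary to a seed was searched in the 3′ UTR of the canonical transcript of each gene (sense strand: CAACTAT for siRNA 05, GCTACTA for siRNA 06, GATATGG for siRNA 07 and GCAAGTA for siRNA 08). At least 1 of the 4 sites was present in 3 of the 10 transporters, beside 2641 of the 12930 tested genes with an annotated 3′ UTR (20.4%). Those 3 have 3′ UTRs of 2012 (Slc1a3), 1890 (Slc7a5) and 2742 bases (Slc38a2), against a median of 1331 over the tested genes. A longer 3′ UTR has more chances of a match. Length was not allowed for in this count or in the fold changes by site below. The sites are printed with 8 bases on each side, in GRCm39 and on the minus strand, with the match in capitals.
Slc1a3, siRNA 06, chr15:8665587-8665609: ccaagtaaGCTACTAcaatcaaa
Slc7a5, siRNA 06, chr8:122608556-122608578: ctggaatgGCTACTAtgcagttc
Slc7a5, siRNA 07, chr8:122608423-122608445: ttctcccaGATATGGgaactggg
Slc38a2, siRNA 08, chr15:96586572-96586594: ggagggaaGCAAGTAgaatcgtc

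Slc1a5, whose 3′ UTR in that transcript has 536 bases, held none of the 4 letter strings. Over all tested genes the median log2 fold change over both days was -0.05 for the 883 genes with the siRNA 08 site, of which 60.8% lay below 0, and 0.00 for the 12047 without it, of which 49.4% lay below 0. For the siRNA 06 site the median was -0.02 over 634 genes. The other seeds gave medians of 0.01 each over 868 genes (siRNA 05) and 772 genes (siRNA 07). A letter match is no evidence of binding, and the part of these sites in any value below was not tested.

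Levels of different transporters were compared as CPM per kb of merged exon length, averaged over all 13 libraries. Slc38a2, a sodium-coupled importer of neutral amino acids, stood at 51.4 CPM per kb (range 44.5 to 57.7). Slc7a5, the light chain for leucine and other large neutral amino acids, stood at 46.3 (34.1 to 61.7) and its heavy chain Slc3a2 at 31.1 (24.6 to 40.0). The ranges of neighbours among these leading genes overlapped. Within every library Slc7a5 lay above Slc3a2 on this length, at 1.14 to 1.85 times, and every Slc38a2 value lay above every Slc3a2 value. The order of Slc38a2 and Slc7a5 is not set beyond the spread of the libraries.

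Slc1a4 followed at 20.6 CPM per kb (18.9 to 24.7), and its lowest library lay above every library of the next gene, the cationic amino acid carrier Slc7a1, at 7.77 (4.39 to 10.3). Slc7a6, a light chain that exchanges cationic for neutral amino acids, Slc1a5 and Slc38a1 had overlapping levels of 6.19, 5.12 and 4.86 CPM per kb. Slc1a3 at 2.01 (0.792 to 3.17) and Slc7a11, the cystine and glutamate exchanger, at 0.318 (0.207 to 0.579) were each apart from their upper neighbour in the order. These places depend on the length used. On the length of the canonical transcript, Slc3a2 stood second at 56.7 CPM per kb ahead of Slc7a5 at 50.6, and Slc38a1 moved to place 5 at 12.9.

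**Figure D1:**
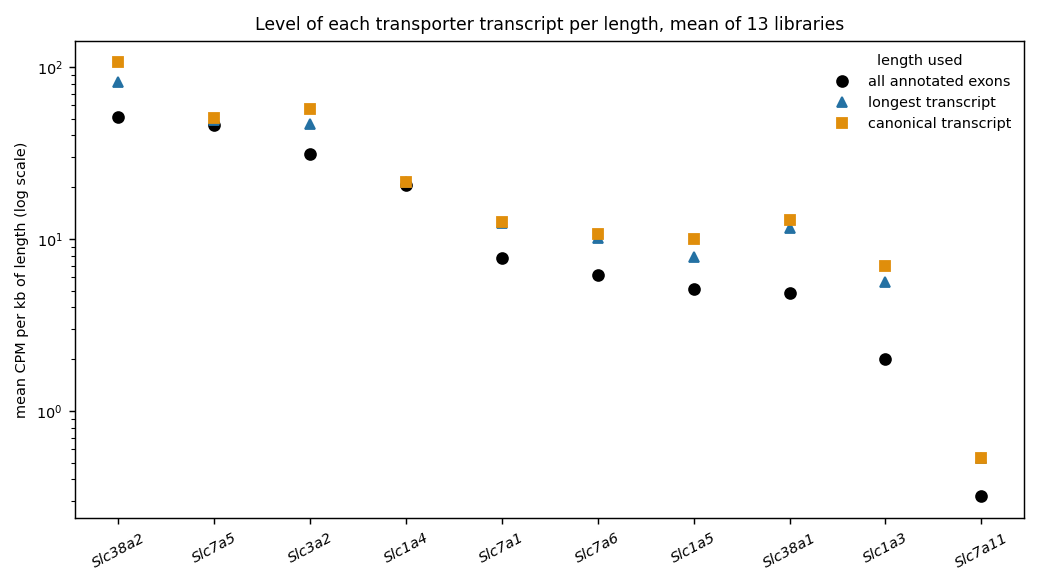
Mean level of each transporter over the 13 libraries as CPM per kb on a log axis, on 3 definitions of transcript length, with the transporters on the horizontal axis. Slc38a2, Slc7a5 and Slc3a2 stand highest and Slc7a11 lowest whichever length is used.

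Knockdown of YBX3 was first compared with control KD over both days, in a fit with day as a term. At an adjusted p under 0.05 in edgeR's quasi-likelihood test, 0 of the 10 transporters were called, where 436 of 16848 genes (2.59%) were called. At an unadjusted p under 0.05 there were 2 (Slc1a4 and Slc1a5), beside 2797 genes (16.6%), and DESeq2 called 1 (Slc1a5), beside 7.00% of genes. None passed the stricter rule of a fold change above 1.3 at an adjusted p under 0.001, which 19 genes (0.113%) passed. The log2 fold change was above 0 for 4 of the transporters and below 0 for 6, with a median of -0.08 beside 0.00 over all genes.

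At 0 day alone 0 transporters were called by edgeR and 0 by DESeq2 (3.00% of genes), with 2 at an unadjusted p under 0.05 in edgeR (Slc1a4 and Slc1a5, beside 12.0% of genes), where 81 genes (0.481%) were called. At 1 day 0 were called by either tool (DESeq2 called 0.902% of genes), with 1 at an unadjusted p under 0.05 (Slc7a11, beside 7.88% of genes), where 12 genes (0.0712%) were called. The replicate letter was taken as pairing the samples, though the check of this only set replicate D apart from the other letters. A fit with the letter as a block called 1 transporter over both days, Slc1a5, which was lower, beside 10.6% of genes (4.63% lower). That fit called 0 transporters at 0 day (2.85% of genes) and 0 at 1 day (0.184%). With the title number as the block in place of the letter, 0 were called over both days (2.52% of genes), so the Slc1a5 call depends on which of these labels is used. Without the replicate D libraries Slc1a5 was again the member called, over both days (13.2% of genes) and at 0 day (5.87%). DESeq2 with the letter block called it over both days (17.5% of genes), at 0 day (7.91%) and at 1 day (13.9%).

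**Figure D2:**
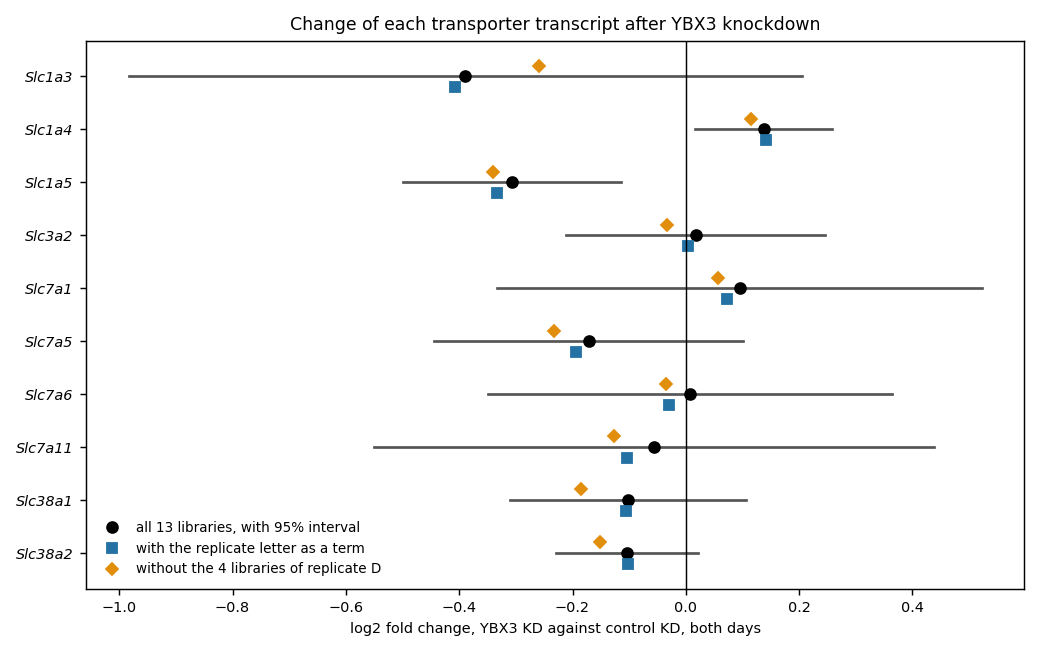
Log2 fold change of each transporter, YBX3 KD against control KD over both days, with its 95% interval from the fit on all 13 libraries (black) and the values with the replicate letter as a term (blue) and without replicate D (orange). The Slc1a5 and Slc1a4 intervals lie below and above 0, and the other 8 include 0.

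Slc1a5 (ENSMUSG00000001918, GRCm39 chr7:16515265-16532731, plus strand) was lower after YBX3 KD in every pair of same-letter libraries, which leave out YBX3 KD 1 day B. In control KD at 0 day it stood at 34.0 (A), 33.8 (B), 31.6 (C) and 24.8 CPM (D), and at 1 day at 31.8 (C) and 29.5 CPM (D). In YBX3 KD it stood at 25.5 (A), 25.6 (B), 25.4 (C) and 22.2 CPM (D) at 0 day and at 29.6 (B), 23.4 (C) and 23.4 CPM (D) at 1 day. The groups overlapped through the control KD 0 day D library, which was the lowest control, and YBX3 KD 1 day B, the highest knockdown library. Below all 6 controls lay 3 of the 7 YBX3 KD libraries.

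The Slc1a5 mean was 30.9 ± 3.40 CPM in control KD (SD, n = 6) and 25.0 ± 2.41 in YBX3 KD (SD, n = 7), which is 81.0% of control (log2 fold change -0.31, SE 0.09, 95% interval -0.50 to -0.11). That difference did not pass the adjusted threshold (edgeR adjusted p = 0.0933, unadjusted 0.00446). With the replicate letter as a block it passed, at a log2 fold change of -0.33 (SE 0.06; edgeR adjusted p = 0.00889). Without replicate D it was -0.34 (SE 0.07; edgeR adjusted p = 0.0148), and without control KD 0 day replicate D alone -0.36 (edgeR adjusted p = 0.0242, where 5.52% of genes were called). Over all 23 settings tried, the Slc1a5 log2 fold change ran from -0.36 to -0.27 and its adjusted p from 7.28e-06 to 0.232, below 0.05 in 5 of them.

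Within pairs of the same letter, YBX3 KD held 75.1% (A), 75.7% (B), 80.4% (C) and 89.6% (D) of the control Slc1a5 level at 0 day and 73.6% (C) and 79.3% (D) at 1 day, lower in 6 of 6 pairs. YBX3 KD 1 day B, the highest knockdown library at 29.6 CPM, has no control partner and is not among these pairs. The share of all genes lower in every pair was not counted. At 0 day the means were 31.0 ± 4.29 and 24.7 ± 1.64 CPM (SD, n = 4 each; log2 fold change -0.33, SE 0.12, edgeR adjusted p = 0.267). There it was past the threshold without replicate D (-0.38, edgeR adjusted p = 0.0442) and missed it with the letter as a block (adjusted p = 0.0529). At 1 day the means were 30.7 ± 1.57 (n = 2) and 25.5 ± 3.59 CPM (SD, n = 3; log2 fold change -0.27, SE 0.15, edgeR adjusted p = 0.711). The effect at 1 day minus that at 0 day was 0.07 on the log2 scale (SE 0.19, 95% interval -0.35 to 0.49, edgeR adjusted p = 1), so a difference between days within those limits was not resolved.

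**Figure D3:**
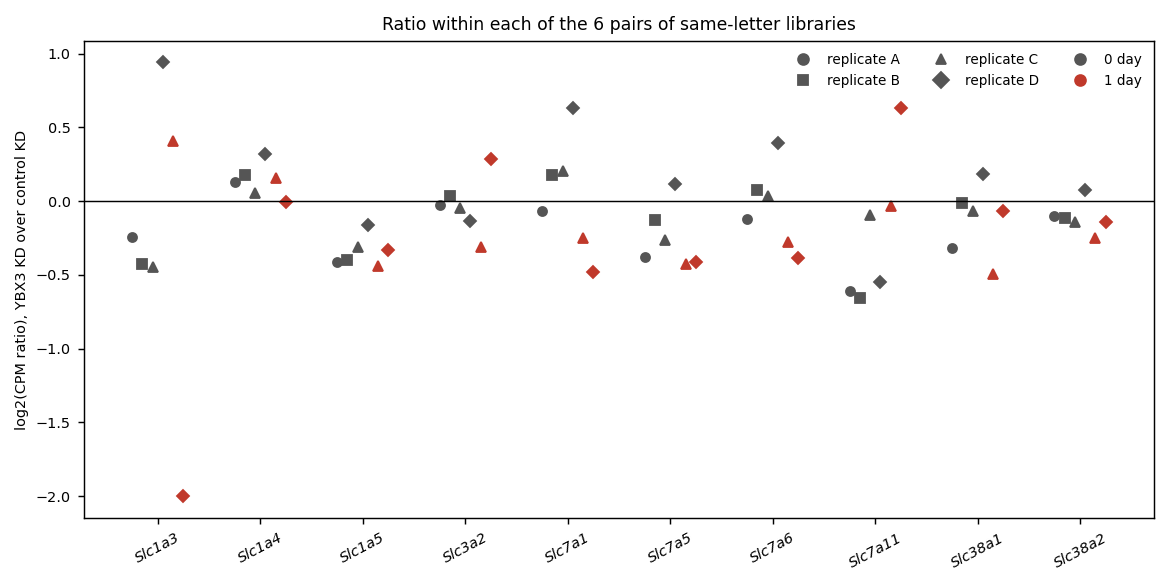
Log2 ratio of CPM, YBX3 KD over control KD, for each transporter in the 6 pairs of libraries with the same replicate letter and day (marker shape gives the letter, grey 0 day, red 1 day). All 6 Slc1a5 ratios lie below 0, while Slc1a3 ranges from 25.0% to 192% of its control. YBX3 KD 1 day B has no control partner and is not shown.

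Slc1a4 (ENSMUSG00000020142, GRCm39 chr11:20252180-20282774, minus strand), the closest relative of Slc1a5 in the list, had values in the other direction. Control KD libraries held 81.4 (A), 80.4 (B), 82.0 (C) and 81.9 CPM (D) at 0 day and 81.3 (C) and 78.9 CPM (D) at 1 day. YBX3 KD libraries held 89.3 (A), 91.0 (B), 85.1 (C) and 102 CPM (D) at 0 day and 84.3 (B), 90.5 (C) and 78.4 CPM (D) at 1 day. The groups did not overlap at 0 day, as for 9.10% of all genes counted in either direction, and over both days 6 of 7 YBX3 KD libraries lay above all 6 controls.

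Slc1a4 control libraries were close together, at 81.0 ± 1.17 CPM (SD, n = 6), and YBX3 KD stood at 88.7 ± 7.45 (SD, n = 7), 109.6% of control. Its log2 fold change of 0.14 (SE 0.06, 95% interval 0.02 to 0.26) did not pass the threshold (edgeR adjusted p = 0.230, and 0.105 to 0.539 over the settings tried, 0.127 with the letter block). At 0 day it was 0.18 (SE 0.07, edgeR adjusted p = 0.360) and at 1 day 0.08 (SE 0.09, edgeR adjusted p = 0.847). The ratio of Slc1a5 to Slc1a4, in CPM per kb of merged exons, was 0.232 to 0.321 in the control KD 0 day libraries and 0.286 to 0.299 at 1 day. In YBX3 KD it was 0.166 to 0.228 at 0 day and 0.197 to 0.269 at 1 day. Over both days the ratios of the siRNA groups overlapped, through control KD 0 day D at 0.232 and YBX3 KD 1 day B at 0.269.

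Slc1a3 (ENSMUSG00000005360, GRCm39 chr15:8663604-8741595, minus strand), the glutamate and aspartate carrier, varied widely among libraries of 1 group. In control KD it stood at 38.8 (A), 40.2 (B), 36.6 (C) and 14.8 CPM (D) at 0 day and at 24.6 (C) and 46.3 CPM (D) at 1 day. In YBX3 KD it stood at 32.8 (A), 30.0 (B), 26.9 (C) and 28.5 CPM (D) at 0 day and at 17.5 (B), 32.5 (C) and 11.6 CPM (D) at 1 day. The D libraries were the lowest of the control 0 day group and of the YBX3 KD 1 day group and the higher of the control 1 day group.

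Pairs of the same letter gave Slc1a3 ratios of 84.4% (A), 74.5% (B), 73.5% (C) and 192% (D) at 0 day and 132% (C) and 25.0% (D) at 1 day. Over both days its log2 fold change was -0.39 (SE 0.27, 95% interval -0.98 to 0.21, edgeR adjusted p = 0.523). It was -0.26 without replicate D (edgeR adjusted p = 0.300), -0.18 without control KD 1 day replicate D and -0.55 without control KD 0 day replicate D. At 1 day it was -0.79 (SE 0.44, edgeR adjusted p = 0.71) and 0.01 without replicate D, so that value rests on the D libraries.

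Slc3a2 (ENSMUSG00000010095, GRCm39 chr19:8684245-8701108, minus strand), the heavy chain, had control KD and YBX3 KD means of 143 and 146 CPM over both days. It stood at 134, 140.5, 159.7 and 140.2 CPM in control KD A to D at 0 day and at 172 (C) and 115 CPM (D) at 1 day. In YBX3 KD it stood at 132, 144, 155 and 128 CPM in A to D at 0 day and at 186 (B), 139 (C) and 139.6 CPM (D) at 1 day. The libraries of both groups were interleaved on each day. Its log2 fold change was 0.02 (SE 0.11, edgeR adjusted p = 0.953), and with a 95% interval of -0.21 to 0.25 a change within those limits was not resolved.

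Slc7a5 (ENSMUSG00000040010, GRCm39 chr8:122607884-122634433, minus strand), the LAT1 light chain that pairs with Slc3a2 to carry leucine and other large neutral amino acids, stood at 196 (A), 175 (B), 206 (C) and 149 CPM (D) in control KD at 0 day. Control KD at 1 day held 229 (C) and 175 CPM (D). YBX3 KD held 150.4 (A), 161 (B), 172 (C) and 161 CPM (D) at 0 day and 237 (B), 171 (C) and 131 CPM (D) at 1 day. The groups overlapped on both days, and the YBX3 KD value was lower in 5 of 6 same-letter pairs, at 74.4% to 109% of control.

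The Slc7a5 means over both days were 188 ± 28.2 (SD, n = 6) and 169 ± 33.0 CPM (SD, n = 7), which is -0.17 on the log2 scale (SE 0.13, 95% interval -0.44 to 0.10, edgeR adjusted p = 0.541). Without replicate D the Slc7a5 change was -0.23 (edgeR adjusted p = 0.143), and the letter block gave an adjusted p of 0.237. The Slc7a5 3′ UTR holds 2 of the seed matches printed above. In CPM per kb of merged exons, Slc7a5 stood at 1.54 ± 0.201 times Slc3a2 in control KD at 0 day (SD, n = 4), and at 0.919 ± 0.120 times on canonical lengths. Among the light chains in the list Slc7a5 made up 88.2% of the summed level per kb of merged exons in that group, and 82.4% on canonical lengths.

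Slc7a6 (ENSMUSG00000031904, GRCm39 chr8:106895139-106925346, plus strand), the y+LAT2 light chain, and Slc7a1 (ENSMUSG00000041313, GRCm39 chr5:148264220-148336848, minus strand), the CAT1 carrier of arginine and lysine that needs no heavy chain, had overlapping values in both siRNA groups. Slc7a6 stood at 39.4 ± 8.92 CPM in control KD and 41.4 ± 5.16 in YBX3 KD at 0 day (SD, n = 4 each), and at 41.7 ± 9.89 (n = 2) and 39.0 ± 11.9 CPM (SD, n = 3) at 1 day. The lowest Slc7a6 library of its group was D in each of the 4 groups, at 26.1, 34.7, 34.3 and 26.6 CPM. Its log2 fold change was 0.01 (SE 0.16, 95% interval -0.35 to 0.36, edgeR adjusted p = 0.988).

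Slc7a1 stood at 102 (A), 87.2 (B), 106 (C) and 51.8 CPM (D) in control KD at 0 day and at 107 (C) and 76.9 CPM (D) at 1 day. In YBX3 KD it stood at 97.4 (A), 98.5 (B), 121 (C) and 80.1 CPM (D) at 0 day and at 117 (B), 90.0 (C) and 55.2 CPM (D) at 1 day. Replicate D was again the lowest library in each of the 4 groups. Its log2 fold change was 0.09 (SE 0.20, 95% interval -0.33 to 0.52, edgeR adjusted p = 0.847), and -0.02 without control KD 0 day replicate D.

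Slc7a11 (ENSMUSG00000027737, GRCm39 chr3:49846975-50398070, minus strand), the xCT light chain that imports cystine in exchange for glutamate, had the lowest counts of the list and values that differed in direction between the days. At 0 day control KD held 6.1 (A), 5.1 (B), 5.2 (C) and 5.2 CPM (D), and YBX3 KD held 4.0 (A), 3.2 (B), 4.9 (C) and 3.6 CPM (D). All 4 knockdown libraries lay below all 4 controls, as for 4.27% of all genes, and the mean was 72.6% of control. At 1 day control KD held 4.6 (C) and 3.4 CPM (D), and YBX3 KD held 9.0 (B), 4.5 (C) and 5.3 CPM (D), with the groups overlapping at replicate C.

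The Slc7a11 log2 fold change was -0.47 at 0 day (SE 0.22, edgeR adjusted p = 0.435) and 0.65 at 1 day (SE 0.29, edgeR adjusted p = 0.622), and the difference of these effects was 1.12 (SE 0.36, 95% interval 0.32 to 1.91, unadjusted p = 0.00986, edgeR adjusted p = 1). In that test of the difference edgeR called 0 of 10 transporters and 0 genes in all (0%), with 477 genes (2.83%) at an unadjusted p under 0.05, and DESeq2 called 0 transporters and 2 genes (0.0119%). Without YBX3 KD 1 day replicate B, the highest Slc7a11 library, the effect at 1 day was 0.28 and the difference 0.76. Within pairs, YBX3 KD held 63.6% to 93.7% of the control level in the 4 pairs at 0 day, and 97.6% (C) and 155% (D) at 1 day, where B has no control partner.

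Promoters from 250 bases before to 50 after the gene start were searched for a C/EBP-ATF response element, TGATGNAA, which binds ATF4 with C/EBP partners when amino acids are short, because Slc7a11 is known to respond to that factor. The RefSeq promoters used here (GRCm38.p6) covered 7 of the 10 transporters with 9 promoters, and those of Slc1a5, Slc7a5 and Slc38a1 were not analysed. The element was present on either strand in 2 of the 9, those of Slc7a11 and Slc1a4, beside 1304 of all 32851 promoters (3.97%). The matches are printed in the gene's direction with the element, or its reverse complement, in capitals.
Slc7a11, chr3:50443664-50443687, minus strand: catgtggcTGATGCAAacctggag
Slc7a11, chr3:50443645-50443668, minus strand: tggagaatTTGCATCAtcatgcag
Slc1a4, chr11:20332702-20332725, minus strand: ctcctgcgTTGCATCAtctccagc

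The CCAAT box (ATTGG or its reverse complement), the motif for which Y-box proteins are named, was present in 4 of the 9 promoters (1 each of Slc1a3, Slc1a4, Slc7a1 and Slc7a11) and in 37.4% of all promoters. These are letter matches only, and no binding was measured.

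Slc38a2 (ENSMUSG00000022462, GRCm39 chr15:96585266-96597894, minus strand), the SNAT2 importer that cells are known to raise when amino acids are short, was steady among libraries. It stood at 548 (A), 509.5 (B), 529.7 (C) and 487 CPM (D) in control KD at 0 day and at 559 (C) and 477 CPM (D) at 1 day. YBX3 KD held 511 (A), 471 (B), 481 (C) and 512 CPM (D) at 0 day and 489.7 (B), 469.5 (C) and 431 CPM (D) at 1 day. The groups overlapped, with 3 of 7 knockdown libraries below all 6 controls and 5 of 6 same-letter pairs lower.

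The Slc38a2 means of 518 ± 33.1 (SD, n = 6) and 481 ± 27.8 CPM (SD, n = 7) gave a log2 fold change of -0.10 (SE 0.06, 95% interval -0.23 to 0.02, edgeR adjusted p = 0.405). It was -0.15 without replicate D (edgeR adjusted p = 0.0698), and the block gave an adjusted p of 0.223. Its 3′ UTR holds the siRNA 08 seed match printed above.

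Slc38a1 (ENSMUSG00000023169, GRCm39 chr15:96469298-96541851, minus strand), the SNAT1 importer encoded near Slc38a2, stood at 93.4 ± 13.1 and 89.5 ± 5.87 CPM in control KD and YBX3 KD at 0 day (SD, n = 4 each). At 1 day it stood at 99.1 ± 19.0 (n = 2) and 88.1 ± 12.7 CPM (SD, n = 3). Its log2 fold change was -0.10 (SE 0.10, 95% interval -0.31 to 0.11, edgeR adjusted p = 0.637), and it was -0.19 without replicate D (edgeR adjusted p = 0.179).

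**Figure D4:**
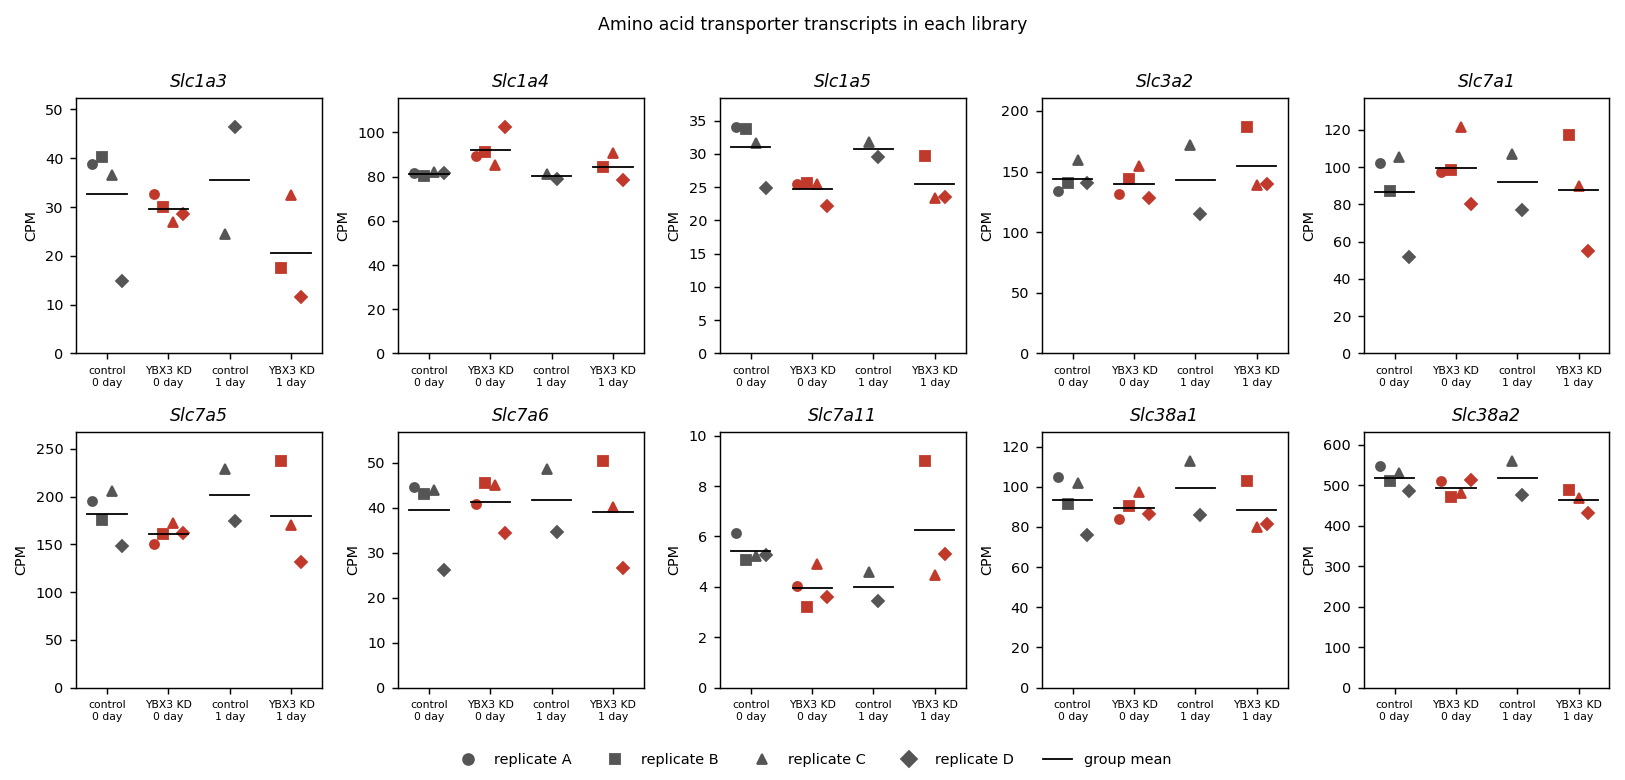
CPM of each of the 10 transporters in every library, by group (grey control KD, red YBX3 KD; marker shape gives the replicate letter, lines the group means). Slc1a5 overlaps between groups through control KD 0 day D at 24.8 CPM and YBX3 KD 1 day B at 29.6 CPM, and the Slc7a6 and Slc7a1 libraries of replicate D lie lowest in each group.

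The start of differentiation was compared next. Between 1 day and 0 day, edgeR called 0 of 10 transporters with siRNA as a term, 0 in control KD alone and 0 in YBX3 KD alone, and it called 0 genes (0%) in each of the 3. Without replicate D it again called 0 transporters in each, beside 174 (1.01%), 3 (0.0174%) and 40 genes (0.232%), with 2, 1 and 2 transporters at an unadjusted p under 0.05. At an unadjusted p under 0.05 it had 0, 0 and 1 transporters beside 557 (3.31%), 251 (1.49%) and 791 genes (4.69%), and DESeq2 called 0 transporters beside 2 (0.0119%), 6 (0.0356%) and 4 genes (0.0237%). The 1 transporter with an unadjusted p under 0.05 over all libraries was Slc7a11, with a log2 fold change of 0.69 in YBX3 KD (SE 0.23, edgeR adjusted p = 0.982) and 0.32 without YBX3 KD 1 day replicate B. Its step in control KD was -0.42 (SE 0.28, edgeR adjusted p = 1), where both 1 day libraries lay below all 4 at 0 day, as for 2.93% of genes. These steps share their libraries with the knockdown comparisons. For Slc1a5 the 1 day level was 92.0% to 119% of the 0 day level over 5 same-letter pairs, higher in 4 of them.

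Across the 13 libraries the transporters varied together to different degrees, and the libraries share depth, letters, days and siRNA. No group means were removed, so differences between control KD and YBX3 KD enter every r given here. Pearson's r of log2 CPM was highest for Slc7a1 with Slc7a6 (0.96), the pair with replicate D lowest in each group, and for Slc7a5 with Slc38a1 (0.85) and Slc7a6 with Slc38a1 (0.79). It was lowest for Slc1a4 with Slc1a5 (-0.60) and for Slc1a3 with Slc7a11 (-0.42). YBX3 KD 1 day replicate B held the highest knockdown value of Slc1a5, Slc3a2, Slc7a5, Slc7a6, Slc7a11 and Slc38a1. Of 16847 other genes, those whose log2 CPM followed Slc1a5 most closely were Get1 (r = 0.938), Larp4 (0.938) and Hsd17b12 (0.935). Their log2 fold changes after YBX3 KD were -0.24, -0.38 and -0.22 (edgeR adjusted p = 0.134, 0.0666 and 0.0792), so none passed the threshold.

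**Figure D5:**
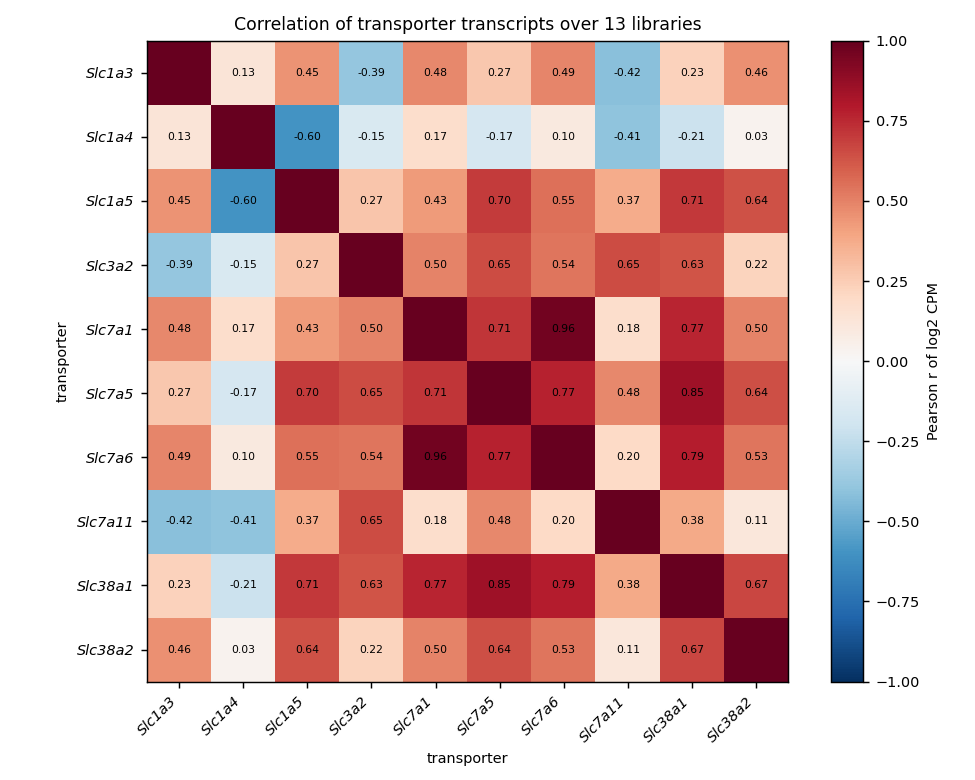
Pearson's r of log2 CPM between each pair of the 10 transporters over the 13 libraries, with the transporters on both axes and r as colour. Slc7a1 and Slc7a6 form the highest pair at 0.96 and Slc1a4 and Slc1a5 the lowest at -0.60. No group means were removed, so differences between the siRNA groups enter r.

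Other amino acid transporters and related carriers, not all of them of the plasma membrane, formed a list of 40 genes, of which 35 had a count and 20 were tested. After YBX3 KD, over both days, edgeR called 0 of the 20 (2.59% of all genes), and 14 had a log2 fold change above 0 and 6 below, with a median of 0.13 beside 0.00 over all genes. At an unadjusted p under 0.05 there were 7 (16.6% of all genes). Slc3a1 and Slc6a19 reached the count level of the filter in 0 of 6 control KD libraries, so they entered the test through YBX3 KD libraries and the filter favoured a value above 0. The counts and median of this list include both genes and are no evidence of a shift. With the letter as a block 5 were called, each higher, where 5.97% of all genes were called higher. They are named here after their values were seen, with log2 fold changes from the fit without the block. They were Slc36a1 (log2 fold change 0.33, edgeR adjusted p with the block 0.0198), a proton-coupled carrier, Slc38a6 (0.42, 0.0185), Slc7a7 (0.70, 0.0315), a light chain for cationic amino acids, and the low genes Slc6a7 (0.97, 0.0421) and Slc6a19 (1.49, 0.0375), the last at 0.0912 CPM in control KD and 0.254 in YBX3 KD. Because Slc6a19 entered the test through YBX3 KD libraries, its call is not read as a result.

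Amino acid sensing upstream of mTORC1 was covered by 34 genes, 33 of them tested, with 18 log2 fold changes above 0 and 15 below and a median of 0.03. edgeR called 1 (2.59% of all genes), Sesn2, a stress-induced leucine sensor that restrains mTORC1, which rose from 29.4 ± 2.59 (SD, n = 6) to 40.0 ± 5.70 CPM (SD, n = 7; log2 fold change 0.44, SE 0.10, edgeR adjusted p = 0.0313). Of the 13 fits that each left out 1 library, the Sesn2 call held in 5, those without control KD 0 day D, YBX3 KD 0 day D and each YBX3 KD 1 day library. Over the 13 its log2 fold change was 0.37 to 0.47 and the adjusted p 0.0154 to 0.0868. With the letter as a block 4 of the 33 were called, 3 higher and 1 lower (10.6% of all genes). They included Lamtor1 (log2 fold change without the block -0.36, edgeR adjusted p with the block 0.0164), a subunit of the Ragulator anchor of mTORC1 on lysosomes, and Fnip1 (0.33, 0.0347).

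Glutamine and branched chain amino acid metabolism was covered by 25 genes in the table, 24 of them tested, with 6 log2 fold changes above 0, 18 below and a median of -0.12. edgeR called 2 (2.59% of all genes), both lower. Dbt, the core subunit of the complex that breaks down branched chain keto acids, fell from 23.3 ± 2.81 (SD, n = 6) to 15.0 ± 2.51 CPM (SD, n = 7; log2 fold change -0.63, SE 0.12, edgeR adjusted p = 0.0175). Psat1, the aminotransferase of serine synthesis, which uses glutamate, fell from 216 ± 21.0 to 161 ± 29.9 CPM (log2 fold change -0.43, SE 0.10, edgeR adjusted p = 0.0461). Leaving out 1 library at a time kept the call of Dbt in 11 of 13 fits, the others being those without control KD 0 day replicate B (edgeR adjusted p = 0.0525) and control KD 1 day replicate C (0.0535). It kept that of Psat1 in 3 of 13, those without control KD 0 day D, YBX3 KD 1 day B and YBX3 KD 1 day D, with an adjusted p of 0.00784 to 0.124 over the 13. With the letter as a block 3 of the 24 were called (10.6% of all genes), adding the mitochondrial aspartate aminotransferase Got2 (log2 fold change without the block -0.18, edgeR adjusted p with the block 0.0378). Within 0 day alone edgeR called 0 genes of these 3 lists, with 4 of 20, 2 of 33 and 3 of 24 at an unadjusted p under 0.05 (12.0% of all genes). Within 1 day it called 0, with 3, 2 and 3 at an unadjusted p under 0.05 (7.88% of all genes). The letter block added Dbt on each day (adjusted p with the block 0.0110 and 0.0462) and Lamtor1 at 0 day (0.0384).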

How the data were processed

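Salmon (version not given in the sources used here) was run by the authors against the mouse transcriptome (GRCm39, Gencode M30), and they deposited estimated counts per gene for 13 libraries. The deposited values were already whole, and the step that summed them by gene is not given. All 13 columns were mapped and 0 were unused. Genes with low counts were removed (edgeR's filterByExpr) and libraries scaled by TMM. Differences were fitted over 16848 genes with edgeR 4.0.16 (R 4.3.3, quasi-likelihood test, siRNA and day, or the 4 groups, as terms), calls being made at a Benjamini-Hochberg adjusted p under 0.05. A pseudocount of 0.5 CPM was added only to the log2 CPM used for correlations. DESeq2 1.42.0 was an alternative. Other alternatives were other scaling factors (RLE), no filter on low counts, replicate blocks, no day term and leaving out libraries. An edgeR fit in its older form, DESeq2 with the letter block and per-length levels on the canonical transcript were added after seeing the data. The statistics were tested on simulated data.

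The replicate letter was taken as pairing the samples. Deviations of same-letter libraries from their group means correlated over 0.1 in 16 of 16 pairs (0.207 to 0.843), against 13 of 46 pairs with other letters. Those 13 pairs were all among the letters A to C. They reached 0.537, above the highest same-letter pair of those letters (0.488). In control KD at 1 day, which has only C and D, the deviations mirror each other. With YBX3 KD 0 day C they correlated at 0.454 (C) and -0.454 (D), so some pairs restate others. Removing group means also tends to lower other-letter pairs where same-letter pairs are raised. The check therefore sets replicate D apart and cannot settle the pairing among A to C. No 2 libraries of a group were duplicates. Gene positions and lengths are from GENCODE M39 (GRCm39). The genes named were the 10 members, the targeted gene, the called members of the 3 pathway lists (1 of them is not reported here) and the 3 genes most like Slc1a5. Members and lists were chosen with earlier results of these data known. No source says which cultures were independent, so p-values measure the spread between these libraries.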

Additional observations from a re-analysis of the deposited data

Results flagged for a closer look

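A library was set apart where its gap to the nearest other library of its group was large for the range of the group (Dixon's 95% criterion), a rule that chance meets in about 1 of 20 groups. Of 20 groups looked at, the 10 transporters in each of the groups of 4 libraries, 3 met it, each through replicate D. Slc1a3, the glutamate and aspartate carrier, stood at 14.8 CPM in control KD 0 day D against 36.6 to 40.2 CPM in the others. Slc7a6, the y+LAT2 light chain, stood at 26.1 CPM in the same library against 43.2 to 44.5 CPM. Slc1a5, the glutamine exchanger, stood at 22.2 CPM in YBX3 KD 0 day D against 25.4 to 25.6 CPM.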

How the results depend on the processing

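The count of transporters called over both days went from 0 to 1, always Slc1a5, under DESeq2, with the letter as a replicate block, with DESeq2 and the block together, and without all libraries of replicate D. Leaving out single libraries gave 0 to 1 (1 without control KD 0 day replicate D). At 0 day it was 1 without replicate D and with DESeq2 and the block, and at 1 day 1 with DESeq2 and the block. Other settings kept 0. All-gene calls over both days were 436, against 1785 with the letter block, 1179 by DESeq2, 2951 with both, 2278 without replicate D, 212 without the filter and 193 to 926 leaving out single libraries.

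With the letter as a replicate block, Slc7a6 over both days turned from 0.01 to -0.029 and the Slc1a5 difference between days from 0.07 to -0.024. Adding DESeq2 to the block gave -0.036 and -0.021, and Slc3a2 -0.00302. Among the transporters the block turned 1 other knockdown effect, the Slc7a5 difference between days (0.0020 to -0.094), and changed no call but that of Slc1a5. Without the filter Slc7a6 was -0.000197. Without replicate D, Slc3a2 was -0.033 and Slc7a6 -0.035, Slc1a3 at 1 day 0.013, and its difference between days 0.38 against -0.64. Leaving out single libraries moved log2 fold changes over both days from -0.071 to 0.077 for Slc3a2, -0.022 to 0.19 for Slc7a1, -0.089 to 0.090 for Slc7a6 and -0.23 to 0.045 for Slc7a11, and the Slc1a5 difference from -0.049 to 0.17. The cause was not tested.

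With 2 control KD libraries at 1 day, that day's intervals are wide. Slc7a11, from 131 counts in a library, is the least precise member. Places in the order of levels per kb depend on the length chosen.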
